A study of Mus musculus with 20 samples.

Results

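Synrg, Ptprf and Xpo6 are 3 genes that read higher in the livers of obese mice given fine airborne particles (PM2.5) together with metformin than in any of the other mice of the experiment. They were chosen for that pattern out of 19505 genes with a probe set, by their symbols in the array's probe-to-gene annotation. Each had 1 probe set, and 3 of the 3 passed the filter on dim genes, which left 11844 genes tested. Because the higher signal in the combined group chose them, their differences from that group are given below as descriptions with no test.

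The livers came from 20 male ob/ob mice, an obese strain without leptin, with 1 single-channel Affymetrix array per mouse. There were 5 mice in each of 4 groups: PM2.5 together with metformin (the combined group), PM2.5, metformin, and filtered air. PM2.5 was breathed in an exposure chamber for 6 hours per day over 2 weeks, and metformin was given in the drinking water at a dose set by body weight. All mice carried the ob/ob genotype, so no lean or leptin-sufficient liver was measured here. The metformin mice are labelled without any word on their air. A chamber stay is described for particle exposure alone, so particles and chamber cannot be told apart. The mice of a group are numbered 1 to 5 by deposition order, which pairs no mice across groups. Litter, batch and scan time are not labelled, so batches were not tested.

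The 3 genes work in different parts of the cell. Synrg encodes gamma-synergin, a partner of the AP-1 adaptor, which gathers cargo into clathrin-coated vesicles at the trans-Golgi network and endosomes. Ptprf encodes LAR, a receptor tyrosine phosphatase of cell contacts that removes phosphate from tyrosines and is known to act on the insulin receptor. Xpo6 encodes exportin-6, which carries actin together with profilin out of the nucleus, with Ran as its driving GTPase. Metformin is a glucose-lowering drug whose main organ of action is the liver.

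Control probe sets and cell markers differed between the arrays, and these values stand before the results because they touch them. The median log2 signal of the 5222 negative-control probe sets was 4.59, 4.79, 4.46, 4.69 and 4.44 in combined mice 1 to 5, against 4.34 to 4.54 on the 15 other arrays. Combined mice 1, 2 and 4 thus lay above every other array, and combined mice 3 and 5 lay within the range of the others. The group mean was 4.59 ± 0.15 in the combined group, 4.44 ± 0.07 in PM2.5, 4.50 ± 0.03 in metformin and 4.41 ± 0.03 in filtered air (SD, n = 5 each). In two-sided exact permutation tests of 252 splits, adjusted over 6 pairs of groups, the combined group was higher than filtered air by 0.18 (adjusted p = 0.0238, combined higher in 5 of 5 mice). Metformin was higher than filtered air by 0.09 (adjusted p = 0.0238, exact permutation), with 5 of 5 mice higher. The combined group did not pass against PM2.5 (0.15, adjusted p = 0.159, exact permutation) or metformin (0.09, adjusted p = 0.305, exact permutation). The smallest unadjusted p these splits allow is 0.00794. The median of the 1324 positive-control probe sets was higher in the combined group than in PM2.5 by 0.30, than in metformin by 0.15 and than in filtered air by 0.27, with adjusted p = 0.0238, 0.0317 and 0.0238 in the exact permutation test.

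Hepatocyte markers were bright on all 20 arrays: 7 of 8 listed genes were on the array, and the mean of their log2 signals was 17.40 to 17.54 in the combined group, 17.44 to 17.51 in PM2.5, 17.43 to 17.57 in metformin and 17.33 to 17.41 in filtered air. Markers of Kupffer cells, the resident macrophages of the liver, fell in the combined group against PM2.5 for 5 of 7 genes tested in limma, with a median log2 difference of -1.10. Against metformin 1 of the 7 fell (median -0.02) and against filtered air 3 (median -0.65), and in PM2.5 against filtered air 0 passed, with 7 of 7 above 0 (median 0.45). Markers of sinusoidal endothelial cells fell against PM2.5 for 5 of 8 (median -1.05), against metformin for 2, with 1 that rose (median -0.50), and against filtered air for 3 (median -0.67). Of all tested genes, 4.73% were called lower against PM2.5, 6.63% against metformin and 16.2% against filtered air. In bulk liver, fewer cells of a type and less RNA per cell cannot be told apart. The mean Kupffer marker signal was 8.63, 7.36, 8.26, 8.48 and 10.12 in combined mice 1 to 5, against 9.47 to 10.31 in PM2.5, 8.69 to 9.03 in metformin and 8.94 to 9.88 in filtered air. The mean endothelial marker signal was 9.42, 8.86, 9.60, 9.07 and 10.19 in combined mice 1 to 5, against 10.07 to 10.45 in PM2.5, 9.52 to 9.86 in metformin and 9.92 to 10.11 in filtered air. The summed Kupffer signal (log2 of the sum) ran from 10.97 to 14.70 in the combined group, 13.95 to 14.69 in PM2.5, 13.02 to 13.50 in metformin and 13.50 to 14.58 in filtered air. The summed endothelial signal ran from 12.94 to 14.68 in the combined group, 14.67 to 15.09 in PM2.5, 14.27 to 14.83 in metformin and 14.54 to 14.99 in filtered air. Some markers of the other lists averaged, over all 20 arrays, below the mean of the negative-control medians. They included the B cell markers Cd79a, Cd79b and Ms4a1 (3 of 3 on the array), the T cell markers Cd3e, Cd3g and Cd8a and the bile duct markers Krt19 and Cftr. Others were the natural killer cell marker Nkg7, the stellate cell markers Des and Hand2 and the neutrophil markers S100a8, Cxcr2 and Mmp8. The adipocyte markers Adipoq and Plin1 and the pancreatic markers Cpa1, Cela2a and Ctrb1 were below as well.

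Synrg had the widest gap between its combined arrays and the nearest other array of the 3 genes. It lies on chromosome 11 at chr11:83964390-84044578 in GRCm38.p6, spans 80189 bases, and was read by the probe set TC1100001273.mm.2. The sequence before its transcription start is shown as a description, as such a sequence is where factors that act on a promoter would bind. The 3 genes share a rise because they were chosen for it, and a shared control of them was not tested. It is the 250 bases upstream of the start in the RefSeq table of build GRCm38.p6 (chr11:83964181-83964430, plus strand, 5′ to 3′). Its last 41 bases lie inside the widest annotated span of the gene. Capitals mark the letters of the motifs searched.
Synrg: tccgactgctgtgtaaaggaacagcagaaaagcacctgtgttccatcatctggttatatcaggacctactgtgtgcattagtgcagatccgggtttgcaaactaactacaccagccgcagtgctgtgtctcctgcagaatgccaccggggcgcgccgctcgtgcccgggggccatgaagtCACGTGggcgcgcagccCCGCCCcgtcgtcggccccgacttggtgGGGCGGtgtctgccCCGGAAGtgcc
The capitals hold 1 E-box (CACGTG), 2 GC boxes (GGGCGG, of which 1 reads as CCGCCC on the other strand) and 1 ETS-type site (CCGGAAG). The window is 62% G and C. No TATA box (TATAAA) or CCAAT box (CCAAT) was found in these letters on either strand.

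The log2 signal of Synrg was 8.999, 9.33, 9.16, 10.11 and 9.01 in mice 1 to 5 of the combined group. It was 7.38, 7.67, 7.51, 7.32 and 7.68 in PM2.5 mice, 7.56, 7.34, 7.89, 7.51 and 7.64 in metformin mice, and 7.64, 7.22, 7.50, 7.70 and 7.48 in filtered-air mice. All 5 combined mice were higher than all 15 others, with mouse 4 the highest, and the other 3 groups overlapped each other. The lowest combined array stood 1.11 above the highest other array, the widest such gap among the 11844 tested genes. On all 15 of those other arrays Synrg lay below the 95th percentile of the negative controls, so the sizes of its gap and of its differences are not firmly measured. For comparison, 202 tested genes (1.71%) had all 5 combined arrays above the 15 others and 56 (0.473%) had all 5 below. The group means were 9.32 ± 0.46 in the combined group, 7.51 ± 0.16 in PM2.5, 7.59 ± 0.20 in metformin and 7.51 ± 0.19 in filtered air (SD, n = 5 each). The combined mean was higher by 1.81 ± 0.18 than PM2.5, by 1.73 ± 0.18 than metformin and by 1.81 ± 0.18 than filtered air (log2 difference ± SE, limma). In these 3 contrasts 6.95%, 9.69% and 18.7% of all tested genes were called higher, shares that are given as background and from which nothing is read about genes chosen on the same contrasts.

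The 3 groups without the combination could be tested, although they share arrays with the contrasts that chose the genes. A gene is called where its Benjamini-Hochberg adjusted p in limma, over the 11844 genes, is under 0.05. Over all tested genes 5.17% were called in PM2.5 against filtered air, 3.15% in metformin against filtered air and 1.59% in PM2.5 against metformin. None of these tests passed for Synrg. PM2.5 differed from filtered air by 0.00 ± 0.18 (95% interval -0.36 to 0.37, adjusted p = 0.991). Metformin differed from filtered air by 0.08 ± 0.18 (-0.29 to 0.45, adjusted p = 0.85), and PM2.5 from metformin by -0.08 ± 0.18 (-0.44 to 0.29, adjusted p = 0.887). The intervals do not show that the 3 groups were equal.

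Ptprf was brighter and more variable. The gene lies at chr4:118208213-118291405 in GRCm38.p6, spans 83193 bases, and was read by the probe set TC0400003386.mm.2. Its upstream window is chr4:118291398-118291647 on the minus strand, of which 8 bases lie inside the annotated span, again with motif letters in capitals.
Ptprf: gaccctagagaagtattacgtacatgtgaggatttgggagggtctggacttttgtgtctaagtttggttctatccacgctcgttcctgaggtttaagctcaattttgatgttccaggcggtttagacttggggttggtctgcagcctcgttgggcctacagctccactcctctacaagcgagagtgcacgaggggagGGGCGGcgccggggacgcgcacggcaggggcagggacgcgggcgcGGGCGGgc
It holds 2 GC boxes, both as GGGCGG, and none of the other 4 motifs. It is 59.2% G and C.

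The log2 signal of Ptprf was 11.54, 11.25, 11.00, 11.57 and 10.19 in combined mice 1 to 5. It was 8.78, 8.99, 9.58, 9.34 and 9.81 in PM2.5 mice, 9.36, 9.40, 9.18, 9.65 and 9.42 in metformin mice, and 8.56, 9.07, 9.57, 9.66 and 9.72 in filtered-air mice. Combined mouse 5 was clearly below the other 4 of its group but still above all 15 other arrays, by 0.38, the 12th widest gap. The other 3 groups overlapped each other, with the metformin mice closest together. The means were 11.11 ± 0.57 in the combined group, 9.30 ± 0.42 in PM2.5, 9.40 ± 0.17 in metformin and 9.32 ± 0.49 in filtered air (SD, n = 5 each). The combined mean was higher by 1.81 ± 0.25 than PM2.5 (3.51-fold), by 1.71 ± 0.25 than metformin (3.26-fold) and by 1.80 ± 0.25 than filtered air (3.47-fold).

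Among the other groups no contrast of Ptprf passed in limma. PM2.5 differed from filtered air by -0.02 ± 0.25 (95% interval -0.54 to 0.51, adjusted p = 0.979). Metformin differed from filtered air by 0.09 ± 0.25 (-0.44 to 0.62, adjusted p = 0.89) and PM2.5 from metformin by -0.11 ± 0.25 (-0.63 to 0.42, adjusted p = 0.892). The order of the 3 lower groups, metformin, filtered air and PM2.5, is therefore not resolved.

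Xpo6 was the brightest of the 3 probe sets on average. It lies at chr7:126101718-126200539 in GRCm38.p6, spans 98822 bases, and was read by the probe set TC0700004265.mm.2. Its upstream window is chr7:126200502-126200751 on the minus strand, of which 38 bases lie inside the annotated span.
Xpo6: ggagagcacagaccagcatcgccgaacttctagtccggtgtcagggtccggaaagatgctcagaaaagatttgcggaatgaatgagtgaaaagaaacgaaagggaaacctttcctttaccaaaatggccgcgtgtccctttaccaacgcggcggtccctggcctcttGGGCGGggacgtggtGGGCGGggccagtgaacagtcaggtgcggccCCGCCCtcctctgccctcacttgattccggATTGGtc
The capitals mark 3 GC boxes (2 as GGGCGG and 1 as CCGCCC) and 1 CCAAT box, which reads ATTGG on this strand. It is 58% G and C. A GC box is the one searched motif that all 3 windows hold, and 32.7% of the 32851 RefSeq promoter windows of the same length hold it. The other shares were 33.8% for CCAAT, 6.91% for the ETS-type site, 6.02% for the E-box and 12.4% for the TATA box. No 2 motifs overlapped within a window. The matches are descriptions of letters, and factor binding was not measured.

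The log2 signal of Xpo6 was 11.13, 11.81, 11.49, 11.96 and 10.91 in combined mice 1 to 5. It was 9.77, 10.20, 9.98, 9.71 and 10.28 in PM2.5 mice, 9.83, 9.54, 9.60, 9.58 and 9.46 in metformin mice, and 8.69, 9.35, 9.58, 9.66 and 9.52 in filtered-air mice. The combined mice were again above all 15 others, by 0.64, the second widest gap after Synrg. Here each PM2.5 mouse lay above each filtered-air mouse, while metformin mice overlapped both. The means were 11.46 ± 0.44 in the combined group, 9.99 ± 0.25 in PM2.5, 9.60 ± 0.14 in metformin and 9.36 ± 0.39 in filtered air (SD, n = 5 each). The combined mean was higher by 1.47 ± 0.20 than PM2.5 (2.78-fold), by 1.86 ± 0.20 than metformin (3.62-fold) and by 2.10 ± 0.20 than filtered air (4.29-fold).

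**Figure D1:**
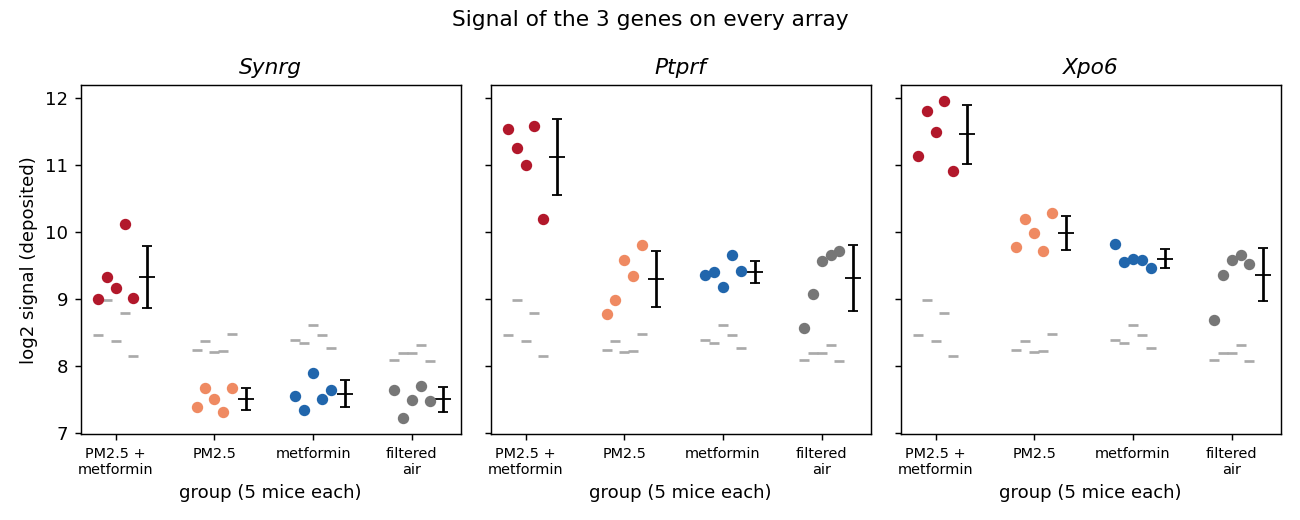
Log2 signal of Synrg, Ptprf and Xpo6 on each of 20 arrays, in the order combined group, PM2.5, metformin and filtered air. Coloured points are single mice, black bars are the group mean with SD, and short grey lines are the 95th percentile of the negative-control probe sets on the same array. All 5 combined mice lie above the other 15 in each panel, and Synrg lies below the grey lines outside the combined group.

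Xpo6 in PM2.5 mice against filtered-air mice was the nearest to a call among the tested contrasts. The difference was 0.63 ± 0.20 (95% interval 0.21 to 1.04), or 1.54-fold, and it missed the threshold with adjusted p = 0.0656 in limma. All 5 PM2.5 mice lay above all 5 filtered-air mice, by a gap of 0.05 between the nearest arrays, as was so for 420 of the tested genes (3.55%). In all, 2.67% of tested genes were called higher in that comparison. The contrast passed with array weights (0.65, adjusted p = 0.0218), without combined mouse 5 (adjusted p = 0.0456) and without combined mice 2 and 4 (adjusted p = 0.0346), and over the fits that each leave out 1 mouse its adjusted p ran from 0.0456 to 0.186. Metformin against filtered air gave 0.24 ± 0.20 (-0.17 to 0.66, adjusted p = 0.553) and PM2.5 against metformin 0.38 ± 0.20 (-0.03 to 0.80, adjusted p = 0.362).

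The interaction, which sets the effect of metformin in exposed mice against its effect in the others, was 1.73 ± 0.25 for Synrg, 1.72 ± 0.36 for Ptprf and 1.23 ± 0.28 for Xpo6 (log2 ± SE). These values contain the combined group and are descriptions. Of all tested genes, 0.16% were called with a positive interaction and 0.0253% with a negative one.

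The 3 genes stood differently to the negative controls. Outside the combined group Synrg lay below the 95th percentile of the negative-control probe sets on all 15 arrays, at -0.998 to -0.44 from it, and above it on all 5 combined arrays, at 0.35 to 1.32. Its signal outside the combined group is therefore not separated from the upper tail of the controls. Ptprf and Xpo6 lay above that percentile on all 20 arrays. When the control median of its own array was subtracted, the combined mean of Synrg was higher than PM2.5 by 1.66, than metformin by 1.64 and than filtered air by 1.63. The same differences were 1.66, 1.62 and 1.61 for Ptprf and 1.32, 1.77 and 1.92 for Xpo6.

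The higher signal of the 3 genes was also present on the combined arrays whose negative-control signal lay among that of the other groups. Those arrays were among the ones that chose the genes, so the values below are descriptions and no separate evidence for the rise. In combined mice 3 and 5, whose negative-control medians lay within the range of the 15 others, Synrg averaged 9.09, which is 1.57 above PM2.5, 1.497 above metformin and 1.58 above filtered air. Ptprf averaged 10.60 in these mice, higher by 1.30, 1.19 and 1.28 than the same groups. Xpo6 averaged 11.20, higher by 1.21, 1.60 and 1.84. The positive-control median was 9.57 in mouse 3, above the 9.46 of the highest other array, and 9.44 in mouse 5, within the range of the others. With the control median of each array as a covariate in limma, the combined group was higher than PM2.5 by 1.55 for Synrg, 1.49 for Ptprf and 1.10 for Xpo6. Against filtered air the same fit gave 1.499, 1.41 and 1.64. Without combined mice 2 and 4, whose control medians were the highest, the differences from PM2.5 were 1.54, 1.61 and 1.19.

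**Figure D2:**
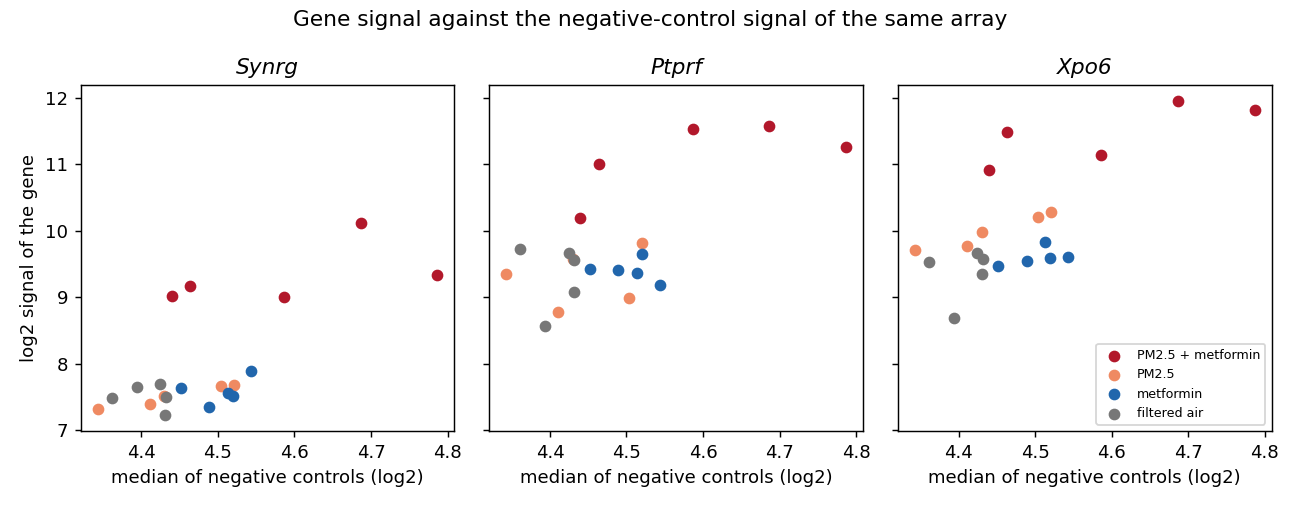
Log2 signal of Synrg, Ptprf and Xpo6 (vertical axis) against the median log2 signal of the negative-control probe sets on the same array (horizontal axis), 1 point per mouse and coloured by group. The 5 combined mice lie above the other 15 across the whole range of control medians, 4.44 to 4.79, including the 2 combined mice whose control medians lie among those of the other groups. The genes were chosen for this higher signal, so the plot is a description.

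Within the combined group the 3 genes did not follow 1 order of mice. Mouse 4 was the highest for all 3. Mouse 5 was the lowest for Ptprf and Xpo6 and had the highest Kupffer and endothelial marker signal of its group, while mouse 1 was the lowest for Synrg. The part of the marker signal in these values was not tested. Over 20 arrays Pearson r was 0.89 between Synrg and Ptprf, 0.92 between Synrg and Xpo6, and 0.90 between Ptprf and Xpo6, values set by the difference between the combined group and the rest that chose the genes. Taken as deviations from the group means the r values were 0.29, 0.53 and 0.67. Over the 15 arrays without the combined group they were 0.06, 0.12 and 0.45. The difference between these values was not tested, and Synrg was not separated from the negative controls on those 15 arrays. With the negative-control median the deviations gave 0.52 for Synrg, 0.41 for Ptprf and 0.65 for Xpo6. The arrays share their processing, so these correlations describe the arrays as well as the genes.

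The genes whose signal was most like each of the 3 over the 20 arrays, by Pearson r, were named as a description. For Synrg they were Lrba (r = 0.947), a vesicle-trafficking protein, Trrap (0.939), a scaffold of histone acetyltransferases, Egln1 (0.936), an oxygen-sensing prolyl hydroxylase, Poldip2 (0.935) and Nipbl (0.929), the cohesin loader. For Ptprf they were Phf3 (0.955), Birc6 (0.943) and Herc1 (0.932), both very large ubiquitin enzymes, Nf1 (0.928), the Ras-inhibiting neurofibromin, and Dcaf1 (0.927), a ubiquitin-ligase receptor. For Xpo6 they were Tent4b (0.971), a poly(A)-tail polymerase, Foxn3 (0.964), a forkhead repressor, Mon2 (0.963), a Golgi trafficking protein, Zfp512b (0.962) and Crebbp (0.955), a histone acetyltransferase. Of these 15 genes, 13 had all 5 combined arrays above the 15 others, and Birc6 and Foxn3 did not. Over all tested genes that share was 1.71%. The like genes were picked by r with genes chosen for this pattern, so the count follows from the choice and nothing is read from it. Egln1, Phf3, Birc6 and Zfp512b remained among the 5 most like genes when deviations from the group means were used, and Mon2 alone when Spearman's rho was used.

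The largest combined difference from PM2.5 among these like genes was that of Zfp512b at 1.44, and the smallest was that of Mon2 at 0.56. The 3 genes and their like genes were long: Synrg, Ptprf and Xpo6 stand at the 83.6th, 84.2nd and 87.5th percentile of gene length among tested genes, whose median length is 22892 bases. Of the 15 like genes, 13 were longer than that median. Of the 1947 tested genes at least as long as Synrg, 83 (4.26%) had all combined arrays above the others, against 119 of 9897 shorter genes (1.20%). Called higher against PM2.5 were 15.3% of the longer and 5.30% of the shorter genes. Against metformin the same shares were 15.3% and 8.59%, and against filtered air 30.4% and 16.4%. These shares describe the arrays with no test, and RNA quality was not measured in the data used here.

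**Figure D3:**
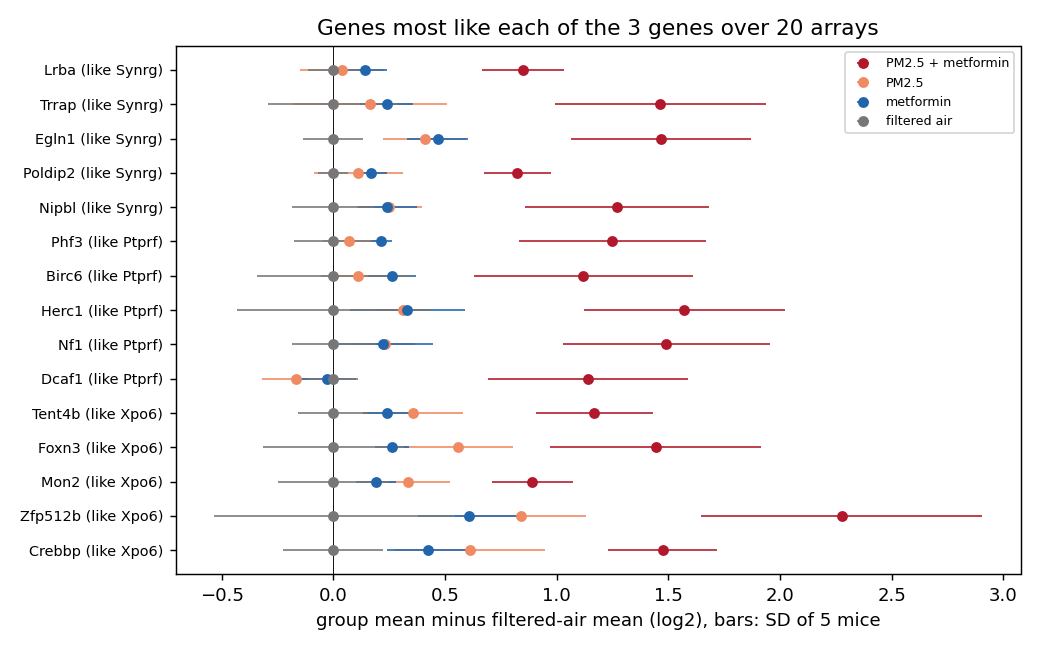
Group means of the 15 genes most like Synrg, Ptprf or Xpo6 over 20 arrays, each minus the filtered-air mean (log2), with SD of 5 mice as bars. The combined mean lies furthest to the right for every gene, between 0.82 for Poldip2 and 2.28 for Zfp512b, and beyond the means of the other 3 groups. The position of the combined mean follows from the choice of genes by likeness to 3 genes that were picked for it.

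Genes that work with the 3 were taken from 5 lists written from general knowledge, without the 3 genes themselves, and 103 of their members were tested. In the combined group against PM2.5, 15 of 103 rose and 5 fell, which is 19.4% called in either direction against 11.7% of all tested genes. Of all tested genes 6.95% rose and 4.73% fell there. Against metformin 21 rose and 9 fell (29.1%), where 16.3% of all genes were called, 9.69% higher and 6.63% lower. Against filtered air 38 rose and 13 fell (49.5%), where 34.9% of all genes were called, 18.7% higher and 16.2% lower. The count against PM2.5 was 1 with the control median as a covariate and 2 without combined mice 2 and 4, while 0.667% and 1.74% of all genes were then called. Against metformin these settings called 17 and 7 listed genes, and against filtered air 17 and 37, some of them genes not called before, such as Srf and Ppfibp1. Of the called listed genes with the lowest p in each list, 1 of 15 against PM2.5 passed under every alternative setting run (Xpo7). Against metformin 6 of 18 did (Ptprj, Ptprm, Insr, Ptpn11, Ranbp2 and Ipo9), and against filtered air 10 of 20 (Gak, Sdc4, Ptprj, Ptprm, Insr, Ptpn11, Shc1, Xpo1, Ipo9 and Xpo5). Ptprm was tested in 28 settings, against 29 for the other genes that passed throughout. The 3 comparisons share the combined arrays. The part of gene length in the counts of listed genes was not tested. Among the named genes, Gak, Heatr5b, Ptprm, Ptprs, Ppfia1, Trio, Irs2, Srf and Ppfibp1 had means below the 95th percentile of the negative controls in every group. Ptpn11 and Xpo5 did so outside the combined group. That percentile averaged 8.18 in filtered air and 8.55 in the combined group. The sizes of the differences of these genes are not firmly measured.

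Partners of Synrg are counted here beside the share of all tested genes called. That share was 11.7% against PM2.5, 16.3% against metformin and 34.9% against filtered air. Of 26 tested genes of the AP-1 adaptor, the synergin complex and clathrin, 3 rose and 0 fell in the combined group against PM2.5 (median log2 difference 0.18, against -0.01 over all tested genes). Cltc, the clathrin heavy chain, rose by 0.65 ± 0.15 (adjusted p = 0.00846 in limma), at 15.72 ± 0.30 in the combined group and 15.07 ± 0.14 in PM2.5 (SD). Arfgef1 and Arfgef2, which activate the Arf proteins that recruit AP-1 to membranes, rose by 0.50 and 0.66, with adjusted p = 0.034 and 0.0469. None of the 3 passed with the control covariate or without combined mice 2 and 4. The AP-1 subunits themselves gave -0.14 for Ap1g1, the gamma subunit that synergin binds (adjusted p = 0.665), 0.16 for Ap1b1 (0.69), 0.43 for Ap1m1 (0.101) and 0.10 for Ap1s1 (0.71). The synergin partners Aftph and Heatr5b gave 0.27 and 0.26 (adjusted p = 0.318 and 0.42).

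Against metformin, where 9.69% of all tested genes were called higher, 4 of the 26 rose (Cltc, Arfgef2, Clta and Gak) and 0 fell, with a median of 0.14. With the covariate Cltc alone of these 4 passed, and none did without combined mice 2 and 4. Against filtered air, where 18.7% of all tested genes were called higher, 11 rose and 0 fell, with a median of 0.21. The lowest p there was that of Gak, which helps strip clathrin from vesicles: it averaged 8.00 ± 0.11 in the combined group, 7.65 ± 0.34 in PM2.5, 7.52 ± 0.19 in metformin and 6.85 ± 0.29 in filtered air (SD). Gak was higher than filtered air by 1.15 ± 0.16 in the combined group (adjusted p = 3.96e-05), by 0.80 in PM2.5 (adjusted p = 0.00708) and by 0.67 in metformin (adjusted p = 0.0267). With the control covariate Gak was called above filtered air in the combined group and in PM2.5 but not in metformin. Clint1, a clathrin adaptor of the trans-Golgi network, was higher than filtered air by 0.63 (adjusted p = 0.00415) and did not pass with the control covariate (0.27, adjusted p = 0.327).

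Relatives and partners of Ptprf are counted here beside the shares of all tested genes. Of 16 tested genes, 3 rose and 0 fell against PM2.5 (median 0.34), 5 and 0 against metformin (median 0.36), and 7 and 0 against filtered air (median 0.34). Beside these counts, 6.95% of all tested genes were called higher and 4.73% lower against PM2.5. Those shares were 9.69% and 6.63% against metformin, and 18.7% and 16.2% against filtered air. The closest relatives did not pass against PM2.5, with 0.02 for Ptprd (adjusted p = 0.962) and 0.33 for Ptprs (adjusted p = 0.135). Ptprs rose by 0.65 against filtered air (adjusted p = 0.00126). Ptprj, another receptor tyrosine phosphatase, averaged 12.23 ± 0.39 in the combined group, 11.40 ± 0.33 in PM2.5, 11.19 ± 0.15 in metformin and 11.12 ± 0.22 in filtered air (SD). It rose by 0.83 ± 0.18 against PM2.5 (adjusted p = 0.00607), by 1.04 against metformin (0.00112) and by 1.11 against filtered air (0.000128). Against PM2.5 it did not pass with the covariate (0.44, adjusted p = 0.235) or without combined mice 2 and 4 (0.60, adjusted p = 0.115). Ptprm, a phosphatase of cell contacts, rose by 1.03 against metformin (adjusted p = 0.00251) and by 1.07 against filtered air (adjusted p = 0.000429), and gave 0.35 against PM2.5 (adjusted p = 0.275). Ptprk, of the same subfamily, rose by 0.71 and 0.85 against the same groups (adjusted p = 0.0064 and 0.000509), but it did not pass against metformin without combined mice 2 and 4 (adjusted p = 0.0796) or against filtered air with the covariate (adjusted p = 0.0679).

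Sdc4, a syndecan, belongs to the proteoglycans that bind LAR-type receptors in the fly. It averaged 14.45 ± 0.21 in the combined group, 13.88 ± 0.23 in PM2.5, 13.96 ± 0.11 in metformin and 12.96 ± 0.44 in filtered air (SD). Its differences from filtered air were 1.49 in the combined group (adjusted p = 9.06e-06), 0.92 in PM2.5 (adjusted p = 0.00481) and 1.00 in metformin (adjusted p = 0.00277), and the combined group was 0.57 above PM2.5 (adjusted p = 0.0378). That last call was lost in 12 of 29 alternative settings, among them the covariate (adjusted p = 0.368) and the fit without combined mice 2 and 4 (adjusted p = 0.262). Trio, an exchange factor first known as a LAR-binding protein, was higher by 0.47 against PM2.5 (adjusted p = 0.0418), but its combined mean of 4.50 ± 0.23 lies near the negative-control medians, so the size of its difference is not measured. The liprin Ppfia1, which anchors LAR at cell contacts, gave 0.14 against PM2.5 (adjusted p = 0.635) and rose by 0.72 against filtered air (adjusted p = 0.00176).

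The insulin receptor, on which LAR can act, rose in the combined group against each other group. Insr averaged 13.47 ± 0.38 in the combined group, 12.66 ± 0.25 in PM2.5, 12.54 ± 0.11 in metformin and 12.02 ± 0.30 in filtered air (SD). Against PM2.5 it rose by 0.81 ± 0.18 (adjusted p = 0.00604), against metformin by 0.93 (adjusted p = 0.0019) and against filtered air by 1.45 (adjusted p = 1.13e-05). The rise over PM2.5 did not pass with the control covariate (0.50, adjusted p = 0.218) or without combined mice 2 and 4 (0.55, adjusted p = 0.117), and the rises over metformin and filtered air passed in both. PM2.5 alone was above filtered air by 0.64 (adjusted p = 0.0369). Of the 17 tested genes of insulin signalling, 4 rose and 0 fell against PM2.5, with a median of 0.05. In that contrast 6.95% of all tested genes were called higher and 4.73% lower.

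The phosphatase Ptpn11 (SHP2), a signalling partner of receptor kinases, rose by 0.84 ± 0.15 against PM2.5 (adjusted p = 0.00226), at 8.80 ± 0.24 in the combined group and 7.95 ± 0.10 in PM2.5 (SD). It passed without combined mice 2 and 4 (0.74, adjusted p = 0.0356) but not with the covariate (0.76, adjusted p = 0.0611). Grb14, which inhibits the insulin receptor, rose by 0.84 (adjusted p = 0.0145) and the kinase Akt1 by 0.79 (adjusted p = 0.0183), and neither passed in those 2 settings. Against metformin 4 of the 17 rose and 2 fell (median 0.26), where 9.69% of all tested genes were called higher and 6.63% lower. Shc1, an adaptor that links receptors to Ras, fell by 0.53 there (adjusted p = 0.00798, and 0.055 without combined mice 2 and 4). Against filtered air 9 rose and 1, Shc1, fell (median 0.52), where 18.7% of all tested genes were called higher and 16.2% lower.

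**Figure D4:**
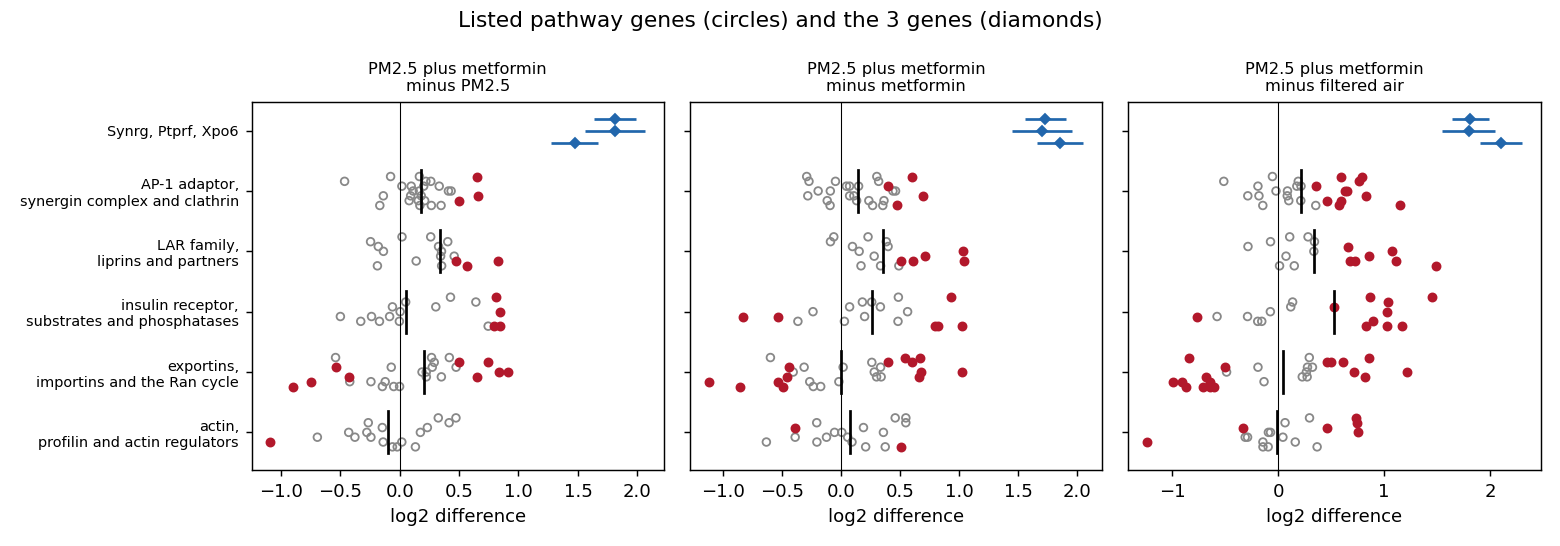
Log2 differences of the combined group from PM2.5 (left), metformin (middle) and filtered air (right) for tested genes of the 5 lists, 1 circle per gene, filled where the adjusted p in limma was under 0.05, with a black line at the list median. Diamonds with SE bars are Synrg, Ptprf and Xpo6, top to bottom, which lie at 1.47 or above in each panel, as descriptions with no test.

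Exportins and importins moved in both directions. Of 26 tested genes, 5 rose and 4 fell against PM2.5 (median 0.21), 7 and 6 against metformin (median 0.00), and 7 and 10 against filtered air (median 0.05). Beside these counts, 6.95% of all tested genes were called higher and 4.73% lower against PM2.5. Those shares were 9.69% and 6.63% against metformin, and 18.7% and 16.2% against filtered air. Xpo7, an exportin of broad cargo, averaged 10.60 ± 0.24 in the combined group, 9.69 ± 0.18 in PM2.5, 9.92 ± 0.19 in metformin and 9.88 ± 0.20 in filtered air (SD). It was higher than PM2.5 by 0.91 ± 0.14 (adjusted p = 0.000912) and was the one listed gene that passed there under every alternative setting run (0.69 with the covariate, adjusted p = 0.0361, and 0.78 without combined mice 2 and 4, adjusted p = 0.0178). Xpo5, which exports precursors of microRNAs, rose by 0.65 against PM2.5 (adjusted p = 0.00936), by 0.66 against metformin (0.00614) and by 0.82 against filtered air (0.000364). The rise over PM2.5 did not pass in those 2 settings, nor the rise over metformin without combined mice 2 and 4 (adjusted p = 0.0537).

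Other members of the transport family included genes called lower. Kpna1, an importin alpha, fell by 0.90 against PM2.5 (adjusted p = 0.0101), while Kpnb1, the importin beta it pairs with, rose by 0.74 (adjusted p = 0.0162). Neither passed there with the covariate or without combined mice 2 and 4. Ranbp2, a large protein on the outer face of the nuclear pore, fell by 1.12 against metformin (adjusted p = 0.00106) and by 0.99 against filtered air (adjusted p = 0.000543). Against filtered air it was -0.54 and did not pass with the covariate (adjusted p = 0.0983), and was -0.59 without combined mice 2 and 4 (adjusted p = 0.00499). Against metformin it passed in both settings, at -0.90 and -0.72 (adjusted p = 0.00392 and 0.0104). Xpo1, the main exportin of proteins, fell by 0.87 against filtered air in the combined group (adjusted p = 9.18e-05) and by 0.73 in PM2.5 alone (adjusted p = 0.00456). Xpo1 averaged 11.11 ± 0.20 in the combined group, 11.26 ± 0.11 in PM2.5, 11.60 ± 0.24 in metformin and 11.98 ± 0.18 in filtered air (SD). Ipo9, an importin known to bring actin into the nucleus, rose by 0.67 against metformin (adjusted p = 0.0057) and by 0.85 against filtered air (adjusted p = 0.00026), and gave 0.42 against PM2.5 (adjusted p = 0.0751). Ran, the GTPase that drives the cycle, gave 0.27 against PM2.5 (adjusted p = 0.348).

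Genes on the cargo side of Xpo6 are counted here beside the shares of all tested genes. Those shares were 11.7% called against PM2.5, 16.3% against metformin and 34.9% against filtered air. Of 18 tested genes of actin, profilin and actin regulators, 0 rose and 1 fell against PM2.5 (median -0.10). The 1 that fell was Tmsb4x, which holds actin monomers: it fell by 1.09 ± 0.27 (adjusted p = 0.0128), at 14.14 ± 0.72 in the combined group and 15.23 ± 0.46 in PM2.5 (SD). In limma Tmsb4x did not pass with the covariate (-0.57, adjusted p = 0.36) or without combined mice 2 and 4 (-0.69, adjusted p = 0.209). Pfn1, the profilin that travels with actin, gave 0.23 against PM2.5 (adjusted p = 0.335). Against metformin Actb, a cytoplasmic actin, rose by 0.51 (adjusted p = 0.0228) and Cfl2, a cofilin, fell by 0.39 (adjusted p = 0.0158), and neither passed without combined mice 2 and 4 (adjusted p = 0.0599 and 0.105). Actb did not pass with the covariate either (adjusted p = 0.0517). Against filtered air 4 rose, among them the actin-sensing coactivator Mrtfb by 0.75 (adjusted p = 0.00335) and the formins Diaph1 and Diaph2 by 0.74 and 0.73 (adjusted p = 0.00544 and 0.00564), and 2 fell. These 3 did not pass with the covariate. Without combined mice 2 and 4 Mrtfb passed (adjusted p = 0.0135 in limma), and Diaph1 and Diaph2 did not (adjusted p = 0.0625 and 0.0585).

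The single exposures were tested on the same listed genes. PM2.5 against filtered air called 10 of 103, with 6 higher and 4 lower (9.71%, where 5.17% of all genes were called, 2.67% higher and 2.5% lower): Gak, Sdc4, Ppfia1, Ptprm, Insr and Irs2 rose, and Xpo1, Cse1l, Ranbp1 and Shc1 fell. Irs2, an insulin receptor substrate, rose by 1.06 (adjusted p = 0.0258). Metformin against filtered air called Gak and Sdc4, both higher (1.94%, where 3.15% of all genes were called, 1.26% higher and 1.89% lower). PM2.5 against metformin called 0 of 103 in limma, where 1.59% of all genes were called (0.946% higher and 0.642% lower), with 12 at an unadjusted p under 0.05 and 1, Ptprm, with the control covariate. The interaction called 0 of 103 in limma as well, where 0.186% of all genes were called, with 14 at an unadjusted p under 0.05 and a lowest adjusted p of 0.0744 for Xpo7.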

How the data were processed

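Liver RNA of 20 mice was measured on 20 arrays, 5 per group. The values the authors deposited are log2 signals, 1 per probe set and array. Affymetrix Expression Console produced them, per the submitters' processing notes; its version, summary method and background correction are not given in the sources used here. The array named in the study's design text is not the one whose identifiers the values carry, so genes were taken from the annotation of those identifiers. There were 28846 probe sets, with 6640 controls and 19572 that name 1 gene; the probe set with the highest mean stood for a gene. Genes with a mean at or below the 40th percentile of the non-control probe sets (log2 4.05) were left out, which lies below the negative-control medians, so genes at background could be tested.

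The deposited values were used with no further normalization. Differences came from limma 3.58.1 in R 4.3.3, as 4 group means with eBayes (residual degrees of freedom 16, prior 5.68), two-sided, with Benjamini-Hochberg adjustment over 11844 genes and a threshold of 0.05. The p-values measure the spread between the 5 mice of a group. Control signals were compared with exact permutation tests. The same fit was also run, as a self-test, on simulated data built from the means and residual SDs of the real data. The precision is limited by the number of arrays, which have no read depth. A single residual variance per gene over the 4 groups can make standard errors too small where 1 group varies more.

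The 3 genes, the lists and the settings were chosen with earlier results of these data known. Named listed genes are, for each list and each comparison of the combined group, up to 4 called members with the lowest p; other genes were named after their values were seen, as partners of the 3. Like genes are the 5 highest Pearson r over 20 arrays, without predicted or provisional names. Some listed genes were not analysed here. Promoters were read from the RefSeq table of GRCm38.p6, for 3 of 3 genes. Alternatives to these choices changed the filter (none, or the 60th percentile), the scaling (quantile or median centring), the weights (array weights), the variance model (trend and robust eBayes) and the arrays fitted (the compared arrays alone). Others were the negative-control median as a covariate, leaving out combined mice 2 and 4 together, and leaving out each mouse in turn.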

Additional observations from a re-analysis of the deposited data

Results flagged for a closer look

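For each named listed gene, like gene and control signal, the arrays of a group were checked for 1 value that stands apart from the rest of its group (a gap above 0.71 of the whole range, for 5 arrays). Of 200 groups tested, 10 had such a value, and chance alone flags about 1 in 20. The 3 genes Synrg, Ptprf and Xpo6 had none. Combined mouse 5 was the lowest of its group for Diaph2 at 8.27 (next value 9.19), Nipbl at 11.68 (next 12.44) and Nf1 at 9.78 (next 10.69), and it was also the lowest for Ptprf and Xpo6. Combined mouse 4 was the lowest for Xpo1 at 10.76 (next 11.12). PM2.5 mouse 5 was the highest of its group for Ptprj at 11.98 (next 11.41). Among metformin mice, mouse 1 was the highest for Cfl2 at 12.46 (next 12.24), mouse 5 was the highest for Nf1 at 9.71 (next 9.29), and mouse 2 had the lowest positive-control median at 9.155 (next 9.40). Among filtered-air mice, mouse 2 was the highest for Mrtfb at 10.77 (next 10.50) and mouse 1 was the lowest for Herc1 at 8.69 (next 9.47). No interaction of a named listed gene passed in limma.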

How the results depend on the processing

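The higher signal of Synrg, Ptprf and Xpo6 in the combined group kept its direction against each other group under every alternative run, and over the fits that each leave out 1 mouse the difference from PM2.5 ran from 1.61 to 1.89 for Synrg, 1.68 to 2.04 for Ptprf and 1.35 to 1.61 for Xpo6. The value that moved by more than the spread between replicates was that of Xpo6 against filtered air with the control covariate, at 1.64. Small differences among the other groups, none called, changed sign. For Synrg, PM2.5 minus filtered air was -0.029 with quantile normalization, -0.028 with median centring, -0.052 with the covariate and -0.067 to 0.053 with 1 mouse left out; metformin minus filtered air was -0.082 with the covariate; PM2.5 minus metformin was 0.031 with the covariate and -0.14 to 0.00055 with 1 mouse left out. For Ptprf, PM2.5 minus filtered air was 0.054 with array weights and -0.20 to 0.11 with 1 mouse left out. Its metformin minus filtered air was -0.11 with the covariate and -0.10 to 0.19 with 1 mouse left out, and its PM2.5 minus metformin was 0.025 with the covariate and -0.23 to 0.024 with 1 mouse left out. Xpo6 in PM2.5 minus filtered air passed with array weights (0.65) and without combined mice 2 and 4 (0.63), and was 0.46 to 0.70 with 1 mouse left out. The listed genes called against PM2.5 numbered 1 with the covariate, 7 with the compared arrays alone, 2 without combined mice 2 and 4, and 8 to 28 with 1 mouse left out (8 when combined mouse 4 is left out, 10 for combined mouse 2, 10 for mouse 4 of PM2.5 and 12 for mouse 3 of PM2.5). Against metformin they numbered 17, 18 and 7 in the first 3 of these settings and 18 to 35 with 1 mouse left out (18 when combined mouse 4 is left out), and against filtered air 17 with the covariate. PM2.5 against filtered air called 3 to 11 with 1 mouse left out, with 3 for mouse 5 of PM2.5, 4 for mouse 2 of PM2.5 and for filtered-air mouse 1, 5 for filtered-air mouse 2, and 6 for filtered-air mice 3 and 5. Metformin against filtered air called 1 with the covariate, 5 with array weights and 1 to 3 with 1 mouse left out (1 for filtered-air mice 1 and 5 and for metformin mouse 3). With the 95th percentile in place of the median of the negative controls, the combined group and metformin were above filtered air by 0.38 and 0.24, with adjusted p = 0.0952 for each in the exact permutation test. The cause of these changes was not tested, beyond the smaller number of arrays in the fits that leave some out. No paired analysis was possible because the labels give no replicate numbers that the groups share.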
